A study of Mus musculus with 10 samples.

Results

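Embryonic stem cells (ESC) and embryonic fibroblasts (MEF) are the end point and the usual starting point of reprogramming to pluripotency, and their maps of open chromatin are compared here. The maps come from FAIRE-seq, an assay that fixes chromatin with formaldehyde, breaks it and sequences the nucleosome-poor DNA that phenol and chloroform leave in the aqueous phase. Each map is a deposited list of open sites. All autosomal sites of both lists were taken, 438802 from ESC and 424647 from MEF, or 863449 of the 1816946 sites in the 4 lists of the series. Sites on the sex chromosomes were set aside.

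The series labels 10 samples in 5 groups of 2: ESC, MEF, epiblast stem cells (EpiSC), neural progenitors derived from ES cells (NSC) and a control of sheared genomic DNA. ESC were of the E14 line (ES-E14Tg2a), kept on gelatin in serum-free N2/B27 medium with 1 uM of the MEK inhibitor PD032590, 3 uM of the GSK3 inhibitor CH99021 and LIF at 1000 U/ml. MEF were derived from E16.5 embryos and grown in DMEM with 10% FBS. The sources used here do not give the number of embryos behind the MEF, their strain or their passage. The lists of the remaining cell types served as outside references. EpiSC of the E3 line grew with 5 ng/ml FGF2 on a feeder layer of fibroblasts and were taken off it before crosslinking, and NSC were kept with FGF2 and EGF at 10 ng/ml each. For ESC and MEF 1 list each was analysed, filed with replicate 2, so no difference between them has a replicate check and no test between them was possible. The source label of the MEF samples names neural chromatin, while their title and cell type name fibroblasts. The MEF list is not a copy of the NSC list, since 40.6% of MEF sites overlapped an NSC site. No gene was placed on these coordinates, which are those of mouse build mm9, so neither list was checked against the marker genes of its cell type.

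In fibroblasts, open chromatin marks the enhancers and promoters of a mesenchymal program, with genes for matrix, adhesion and the cytoskeleton. In ESC it marks promoters and the enhancers bound by pluripotency factors such as Oct4, Sox2 and Nanog, and the inhibitors of MEK and GSK3 hold the cells in the state known as ground-state pluripotency. When fibroblasts are reprogrammed with Oct4, Sox2, Klf4 and Myc, fibroblast enhancers close and pluripotency enhancers open. Promoters of widely used genes are open in most cell types.

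Most open sites of each cell type had no counterpart in the other. Of the ESC sites, 107321 (24.5%, exact 95% interval 24.3 to 24.6) shared at least 1 bp with a MEF site. Of the MEF sites, 107450 (25.3%, interval 25.2 to 25.4) shared at least 1 bp with an ESC site. That left 331481 ESC sites and 317197 MEF sites without a counterpart. Merging both lists gave 747770 regions, of which 331372 (44.3%) held ESC sites alone, 99290 (13.3%) held both and 317108 (42.4%) held MEF sites alone. The intervals cover the counting of sites only. The read depth behind either list is unknown, and its part in these numbers was not tested.

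In bases, ESC sites covered 226 Mb of the autosomes and MEF sites 165 Mb, with 36.9 Mb in common. The common bases made up 16.3% of the bases in ESC sites and 22.3% of those in MEF sites. The midpoint of a site gives a measure that does not grow with the width of that site. Of ESC midpoints, 16.3% lay inside a MEF site, and MEF sites covered 6.69% of the autosomal span. Of MEF midpoints, 18.5% lay inside an ESC site, and ESC sites covered 9.14% of the span.

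Most shared sites met a single partner. Among the 115551 overlapping pairs, 86230 (74.6%) joined 1 ESC site and 1 MEF site that touched no further site of the other list. In these pairs the midpoints lay a median of 132 bp apart (quartiles 58 and 252), and the ESC site was a median of 1.08 times as wide as the MEF site (quartiles 0.65 and 1.88). The smaller site lay wholly inside the larger in 38531 pairs (44.7%). Widths within a pair were weakly related, with a Spearman correlation of 0.18 across pairs, and so were the scores, at 0.20. The score is a value per site given by the authors, with no stated unit, and each correlation compares ranks across pairs, which are not replicates. Some sites, broad as a rule, shared at least 1 bp with 2 or more sites of the other list. These were 7538 ESC sites, with a median width of 1262 bp, and 7573 MEF sites, with one of 846 bp.

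Broad sites were more often shared, more so in MEF than in ESC. ESC sites had a median width of 374 bp (quartiles 245 and 608) and MEF sites of 323 bp (227 and 463). Of the 1170 MEF sites over 2 kb wide, 87.4% (85.4 to 89.3) overlapped an ESC site, against 13.7% of the 33797 MEF sites up to 150 bp. Of the 7772 ESC sites over 2 kb, 53.9% (52.7 to 55.0) overlapped a MEF site, against 16.2% of the 28230 up to 150 bp. At the same width of over 1 kb up to 2 kb the shares were 70.3% for MEF and 41.4% for ESC. A wide site has more room to touch another, and ESC sites cover 9.14% of the span against 6.69% for MEF sites; their part in these shares was not tested.

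The score of a site went with sharing in opposite ways in ESC and MEF. ESC sites that overlapped MEF had a median score of 4.57 (quartiles 2.64 and 8.03), and those without had 3.22 (1.87 and 5.06). MEF sites that overlapped ESC had a median score of 3.04 (1.84 and 4.72), lower than the 3.41 (2.24 and 5.03) of MEF sites without overlap. When each list was ranked by score, 10.8% of the 10% of ESC sites with the lowest scores were shared, and 51.6% of the 10% with the highest. In MEF the 10% with the lowest scores were shared most, at 43.2% (42.7 to 43.7). The share was 18.5% in the fourth group from the bottom and 27.6% (27.2 to 28.1) in the highest 10%. At a width of 200 to 500 bp the corresponding shares were 9.34% and 34.1% in ESC and 38.5% and 14.4% in MEF. These steps hold within each list, since a common scale of scores is not stated.

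**Figure D1:**
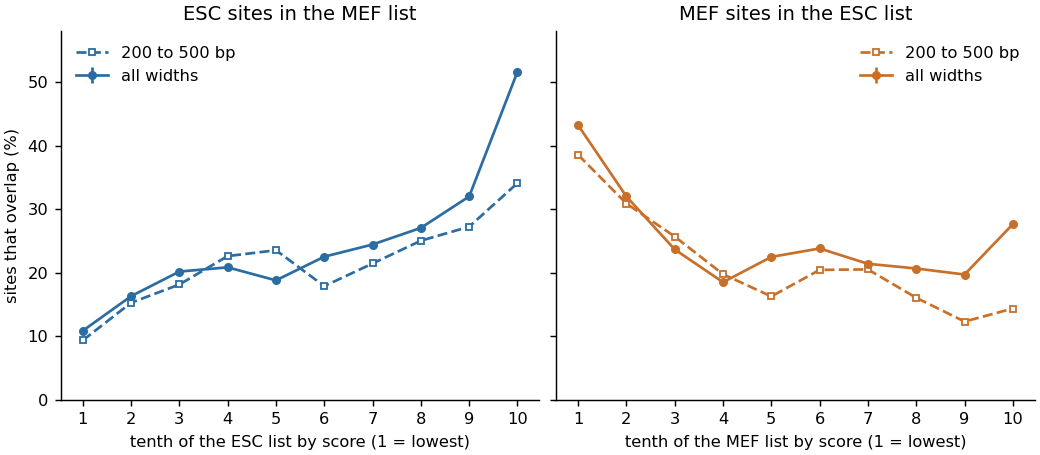
Share of sites (%) that overlap the other list, by groups of 10% of the list ranked by the authors' score, for ESC sites (left) and MEF sites (right); solid lines show all sites with exact 95% intervals, which are smaller than the symbols, and dashed lines sites 200 to 500 bp wide. The ESC line goes from 10.8% to 51.6%, with a dip on the way, and the MEF line starts at its highest value, 43.2%.

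The low-scoring MEF sites lay where ESC sites were dense. Counted in windows of 100 kb, the windows around the 10% of MEF sites with the lowest scores held a median of 30 ESC sites, against 13 around the 10% with the highest. The MEF sites around them were similar in number, with medians of 22 and 25. Conversely, the median score of MEF sites went from 3.83 in windows without any ESC site to 2.88 in windows with 40 or more. Among MEF sites of all widths in windows of similar ESC density, the lowest and the highest scores were shared at rates closer in percentage points. In proportion they were not closer in windows with 1 to 4 ESC sites. In windows with 1 to 4 ESC sites, 6.67% of the lowest-scoring and 3.88% of the highest-scoring MEF sites overlapped ESC. In windows with 20 to 39 ESC sites these shares were 45.4% and 42.5%. In windows with 40 or more, they were 67.3% and 66.8%. In ESC the difference stayed large: in windows with 20 to 39 MEF sites, 15.1% of the lowest-scoring and 59.5% of the highest-scoring ESC sites overlapped MEF.

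The EpiSC and NSC lists, which play no part in defining the classes, set the classes apart. Shared sites were open widely: of the ESC sites with a MEF counterpart, 60.0% (59.7 to 60.3) overlapped EpiSC and 57.8% (57.5 to 58.1) overlapped NSC. Over all ESC sites these shares were 40.3% and 33.2%. ESC sites without MEF overlap leaned to the pluripotent side, with 34.0% (33.8 to 34.1) in EpiSC and 25.3% (25.1 to 25.4) in NSC. MEF sites without ESC overlap leaned to the neural side, with 15.8% (15.7 to 16.0) in EpiSC and 34.5% (34.4 to 34.7) in NSC. Over all MEF sites the shares were 27.0% in EpiSC and 40.6% in NSC. The NSC list is the longest of the 4 and the EpiSC list the shortest. With 4 lists of equal length the shares were 37.2% and 17.2% for ESC sites without MEF and 15.9% and 28.0% for MEF sites without ESC, so both leanings stayed. What part the feeder fibroblasts of the EpiSC cultures have in their overlap with MEF was not tested.

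In combination, 43231 of the shared ESC sites (40.3%) were open in EpiSC and NSC as well, and 24086 (22.4%) in neither. Of the ESC sites without MEF overlap, 39689 (11.97%) were open in both, 72904 (21.99%) in EpiSC alone, 44128 (13.3%) in NSC alone and 174760 (52.7%) in neither. Of the MEF sites without ESC overlap, 24649 (7.77%) were open in both, 25593 (8.07%) in EpiSC alone, 84907 (26.8%) in NSC alone and 182048 (57.4%) in neither. Sites open in more lists were broader. ESC sites without MEF overlap had a median width of 434 bp where both further lists had a site and 328 bp where neither had. The MEF sites without ESC overlap had 372 bp and 282 bp.

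**Figure D2:**
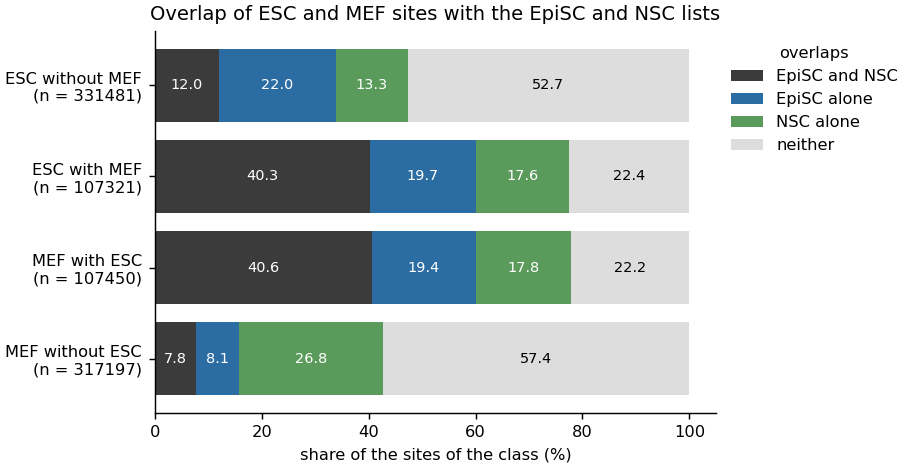
Share (%) of ESC and MEF sites, with and without a counterpart in the other list, that overlap both EpiSC and NSC, EpiSC alone, NSC alone or neither; n is the number of autosomal sites. The shared classes reach 40.3% and 40.6% in both further lists, ESC sites without MEF have 21.99% in EpiSC alone, and MEF sites without ESC have 26.8% in NSC alone.

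The lists also differed in how sites were spread along the chromosomes. ESC sites were crowded into part of the genome and MEF sites were spread more evenly. Across the 23717 autosomal windows of 100 kb that held a site of any list, ESC had a mean of 18.5 sites with an SD of 17.9, and MEF 17.9 with an SD of 10.5. The SD is over windows. The median was 12 in ESC (quartiles 3 and 32) and 16 in MEF (10 and 24). The 50% of windows with the fewest ESC sites held 10.1% of ESC sites, and the 50% with the fewest MEF sites held 27.1% of MEF sites. EpiSC and NSC lay between, at 18.97% and 20.8%. ESC had no site in 1820 windows (7.67%) and MEF in 276 (1.16%), and 71 windows had neither.

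MEF sites were fewer where ESC sites were few, but were seldom absent there. Windows with no ESC site had a median of 9 MEF sites (quartiles 5 and 14), windows with 5 to 9 ESC sites had 17 and windows with 40 or more had 20 (14 and 26). Over the same steps the EpiSC median went from 2 to 11 to 31. At 10 to 19 ESC sites or more, the number of MEF sites hardly changed with the number of ESC sites, with medians of 19, 20 and 20. Across windows the Spearman correlation of ESC was 0.34 with MEF, 0.35 with NSC and 0.84 with EpiSC, as a description. That of MEF was 0.62 with NSC and 0.45 with EpiSC. When windows empty in all lists were included, the ESC values were 0.41, 0.42 and 0.86.

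Of the 23717 windows, 1452 (6.12%) held 5 or more MEF sites and no ESC site, and 42 (0.177%) held 5 or more ESC sites and no MEF site. At 20 or more sites of 1 list and none of the other, the numbers were 213 and 3. The 1452 windows without ESC were poor in EpiSC and NSC too, with medians of 3 EpiSC sites and 9 NSC sites. Of them, 201 had no EpiSC site whereas 9 had no NSC site. The 42 windows without MEF were poor in both, with medians of 1.5 EpiSC sites and 1 NSC site. Of these, 14 had no EpiSC site and 15 no NSC site. EpiSC sites outnumbered NSC sites in 42.9% of the 42, against 32.3% of all windows. Over all windows the medians were 14 in EpiSC and 21 in NSC. MEF had a median of 16 over all windows and 11 in the 1452 windows.

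A softer split, chosen after the data were seen, took the 21089 windows with at least 10 ESC and MEF sites together. A window was called tilted where at least 80% of these sites came from 1 list. MEF-tilted windows numbered 5403 (25.6%) and ESC-tilted windows 1242 (5.89%). The MEF-tilted windows held 109670 MEF sites, 25.8% of that list, and 2.84% of ESC sites. The ESC-tilted windows held 52004 ESC sites, 11.9% of that list, and 2.19% of MEF sites. The rule that picks MEF-tilted windows favours few ESC sites. ESC had a median of 2 there, against 16 in all windows with 10 or more sites, and MEF had 18 in both. ESC-tilted windows had medians of 44 ESC and 8 MEF sites. EpiSC had a median of 25 sites in ESC-tilted windows (quartiles 19 and 32) and 6 in MEF-tilted windows (3 and 10), against 17 in all windows with 10 or more sites. NSC had 14 (7 and 21) and 18 (8 and 35), both below its 23 in all such windows. EpiSC sites outnumbered NSC sites in 80.6% of ESC-tilted windows and 11.03% of MEF-tilted windows, against 33.7% of all windows with 10 or more sites. With the 50% of sites of each list that score highest, MEF-tilted windows numbered 3977 and ESC-tilted windows 2587, so the excess shrank.

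**Figure D3:**
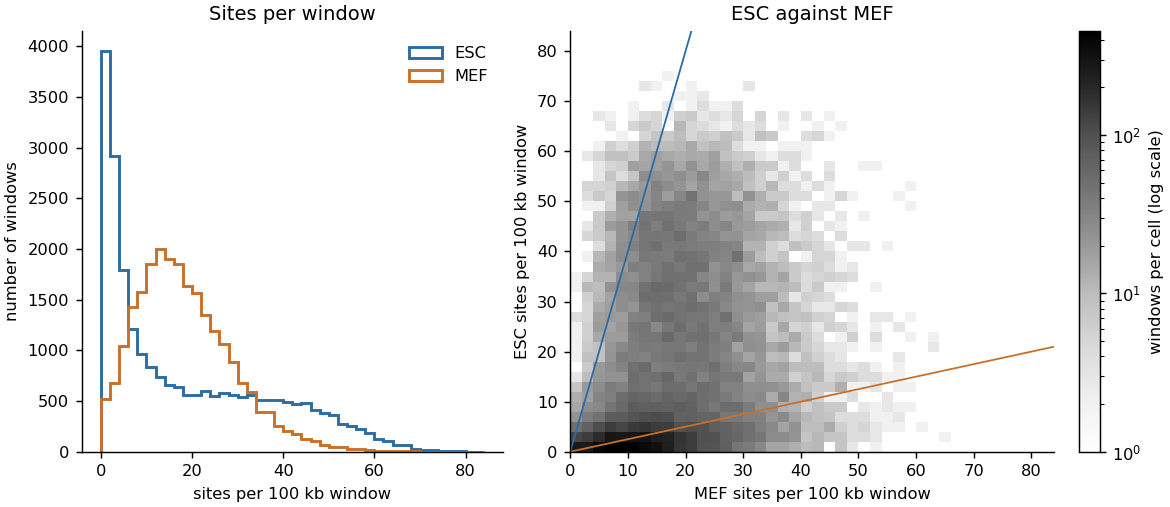
Left, number of autosomal 100-kb windows by their number of ESC or MEF sites; right, ESC sites against MEF sites per window, shaded by the number of windows on a log scale, with lines where ESC sites make up 80% (blue) and 20% (orange) of the 2 lists together. ESC has a tall peak near 0 and a long shoulder up to 83 sites, and MEF has a single hump around its median of 16.

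Tilted windows stood alone or joined into domains, and the domains were longer for MEF. The 5403 MEF-tilted windows formed 1889 sets of adjacent windows, 892 of them a single window and 87 at least 1 Mb long. Of these windows, 51.2% lay in sets of 500 kb or more. The 1242 ESC-tilted windows formed 807 sets, 598 of them a single window and 6 at least 1 Mb long, and 17.6% lay in sets of 500 kb or more. MEF-tilted windows were the more numerous, which makes adjacent ones more likely, and the part of this in the lengths was not tested. The longest MEF-tilted domain was on chromosome 4 from 28100001 to 31400000, with 680 MEF and 68 ESC sites over 3.3 Mb. NSC had 641 sites there and EpiSC 190. Next came chromosome 13 from 25600001 to 28500000, with 718 MEF, 40 ESC, 157 EpiSC and 773 NSC sites. A domain on chromosome 5 from 46100001 to 48700000 had 659 MEF, 57 ESC, 129 EpiSC and 233 NSC sites. Over all MEF-tilted windows the NSC median of 18 was below the 23 of all windows with 10 or more sites. The longest ESC-tilted domains, of 1.2 Mb each, were on chromosome 4 from 139300001 to 140500000, with 496 ESC and 60 MEF sites, and on chromosome 8 from 12200001 to 13400000, with 564 and 89. EpiSC had 371 and 296 sites in these domains and NSC 182 and 201.

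The windows at the extremes were picked by count. The window with the most MEF sites and no ESC site was on chromosome 4 from 64300001 to 64400000, with 52 MEF, 9 NSC and 6 EpiSC sites. MEF sites covered 20.2% of its bases, and their median score of 6.15 was above the list median of 3.32. Its neighbour from 64200001 to 64300000 had 47 MEF sites, 12 NSC and 8 EpiSC sites. Both belong to the series with the most MEF sites unbroken by any ESC site, 147 sites over 316 kb from 64175739 to 64491579, of which 21 overlapped NSC and 13 EpiSC. On chromosome 2, the window from 141500001 to 141600000 had 47 MEF sites and none in ESC, with 39 NSC and 8 EpiSC sites.

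On the ESC side the window on chromosome 12 from 106500001 to 106600000 had 34 ESC sites and no MEF site, with 14 EpiSC and 4 NSC sites. ESC sites covered 19.1% of its bases with a median score of 2.97, below the list median of 3.45. The window on chromosome 4 from 127600001 to 127700000 had 33 ESC, 30 EpiSC and 3 NSC sites. On chromosome 7 from 27500001 to 27600000 there were 20 ESC, 8 EpiSC sites and 1 NSC site. These 3 windows held more EpiSC than NSC sites. The 42 windows with 5 or more ESC sites and no MEF site held 192 EpiSC and 97 NSC sites in all. EpiSC sites outnumbered NSC sites in 42.9% of the 42, against 32.3% of all windows.

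Some windows were dense in both cell types. Chromosome 11 from 11700001 to 11800000 had 62 sites in each list, covering 32.3% of its bases in ESC and 36.7% in MEF. Chromosome 7 from 119800001 to 119900000 had 63 ESC and 60 MEF sites, and chromosome 9 from 96600001 to 96700000 had 67 and 58. EpiSC had 42, 42 and 51 sites in these 3 windows and NSC 23, 65 and 36.

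**Figure D4:**
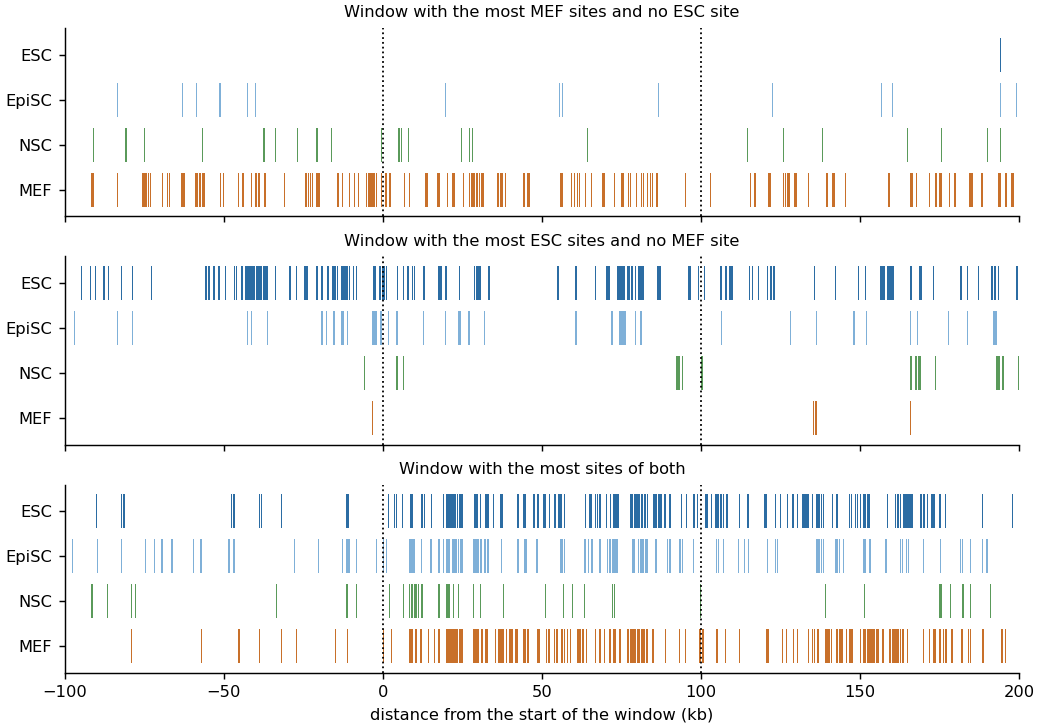
Open sites in ESC, EpiSC, NSC and MEF over 3 windows of 100 kb (between the dotted lines) and 100 kb to each side, drawn to scale against the distance from the start of the window in kb. From top to bottom the window holds 52 MEF sites and no ESC site, 34 ESC sites and no MEF site, and 62 sites of each; in the first 2 the contrast runs on into both flanks.

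At a finer scale, sites of 1 cell type also came in unbroken series. Of the MEF sites without ESC overlap, 96577 (30.4%) stood in 5338 series of 10 or more with no ESC site between them. For ESC these were 50160 sites (15.1%) in 3595 series. The ESC series were compact, with a median length of 22.7 kb, against 61.6 kb for MEF. In the MEF series 9.14% of sites overlapped EpiSC and 31.0% NSC, against 15.8% and 34.5% of all MEF sites without ESC. In the ESC series the shares were 35.7% and 18.1%, against 34.0% and 25.3%. The ESC series with the most sites were 63 sites on chromosome 12 from 107312386 to 107451407, 57 on chromosome 15 from 74345333 to 74470376 and 55 on chromosome 5 from 117403788 to 117544058. Of these sites 24, 23 and 14 overlapped EpiSC, and 3, 6 and 0 overlapped NSC. After the MEF series of 147 sites on chromosome 4 came 112 sites on chromosome 19 from 49387629 to 49936960, over 549 kb, and 109 on chromosome 10 from 37546390 to 37935014, over 389 kb. Of the last, 57 overlapped NSC and 1 EpiSC.

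Stretches between neighbouring ESC sites that held 10 or more MEF sites numbered 5449 and added up to 534 Mb. They held 98209 MEF sites, 23.1% of the list. The reverse, stretches between MEF sites with 10 or more ESC sites, numbered 3894 and added up to 128 Mb with 54170 ESC sites (12.3%). Over 100 kb long were 1818 of the former and 67 of the latter. The longest without an ESC site ran over 7192 kb on chromosome 7 from 39325544 to 46517457 but held few sites of any list, 10 in MEF, 8 in NSC and 3 in EpiSC. More densely filled was chromosome 16 from 53985740 to 54892191, with 78 MEF, 52 NSC and 28 EpiSC sites, and chromosome 19 from 12899546 to 13843293 had 25, 50 and 1. The longest without a MEF site was 2270 kb on chromosome 2 from 175004204 to 177273951, with 20 ESC, 4 EpiSC and 3 NSC sites. On chromosome 12 from 19254033 to 20235451 there were 23 ESC sites, 1 EpiSC site and no NSC site, and on chromosome 7 from 11386893 to 12289007 there were 14, 7 and 4.

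Sites of 1 cell type alone were thus near or far from the other cell type in different measure. An ESC site without overlap lay a median of 1889 bp from the nearest MEF site (quartiles 726 and 4253), and 7.0% lay more than 10 kb away. A MEF site without overlap lay a median of 3314 bp from the nearest ESC site (958 and 12048), and 28.3% lay more than 10 kb away. More than 50 kb away were 645 ESC sites and 19341 MEF sites. Around the 99290 shared regions, a mean of 2.80 ESC sites without overlap and 1.54 such MEF sites lay within 5 kb. No such ESC site was within 5 kb of 13.8% of shared regions, and no such MEF site within 5 kb of 30.1%.

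Among chromosomes, chromosome 8 stood out. It held 33350 ESC and 21734 MEF sites, a ratio of 1.53. On the other autosomes the ratio ran from 0.81 on chromosome 3 to 1.17 on chromosome 5. ESC sites outnumbered MEF sites on 10 autosomes, and MEF sites were more numerous on 9. The ratio of ESC to EpiSC sites was 1.56 on chromosome 8 and 1.55 on chromosome 7, from different counts. Chromosome 8 had 21390 EpiSC and 26737 NSC sites, both fewer than its ESC sites. Chromosome 7 had 26771 ESC and 23194 MEF sites, with 17307 in EpiSC and 30590 in NSC, so ESC did not exceed NSC there. Sharing on chromosome 8 was the lowest of all autosomes for ESC sites, at 21.3%, and among the highest for MEF sites, at 33.2%. Both shares count nearly the same overlaps, so the gap between them largely restates the ratio of 1.53. Elsewhere sharing ran from 21.8% (chromosome 6) to 29.0% (chromosome 11) for ESC and from 18.2% (chromosome 3) to 34.6% (chromosome 11) for MEF. Of the 1249 windows on chromosome 8, 170 (13.6%) were ESC-tilted and 170 (13.6%) MEF-tilted. Over all 23717 windows these shares were 5.24% and 22.8%. Without chromosome 8, 24.7% of ESC and 24.9% of MEF sites overlapped the other list, and 1072 windows were ESC-tilted and 5233 MEF-tilted.

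**Figure D5:**
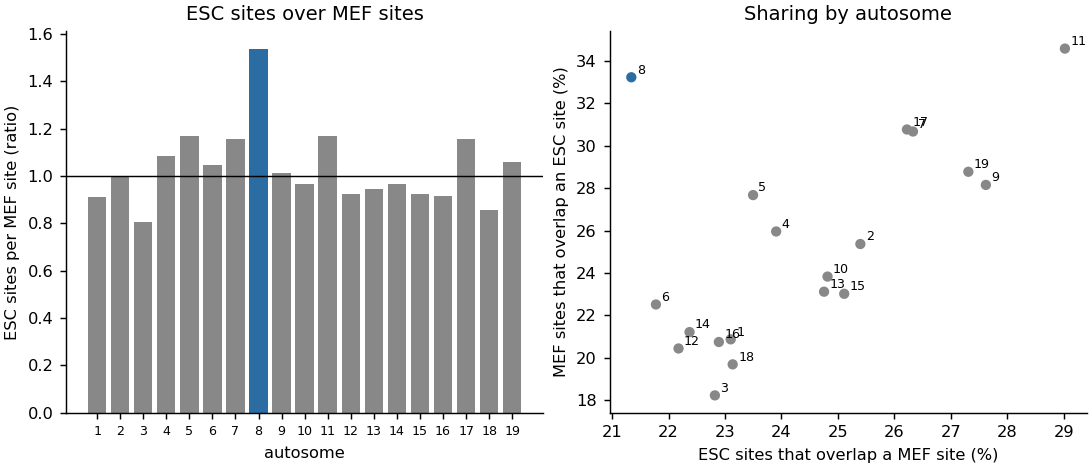
Left, ESC sites per MEF site on each autosome (bars, ratio, with a line at 1); right, share (%) of ESC sites that overlap MEF against share of MEF sites that overlap ESC, each point an autosome with its number. Chromosome 8 (blue) has the highest ratio, 1.53, and lies apart from the other autosomes in the right panel, with 21.3% and 33.2%. The gap between these shares largely restates the ratio.

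Single sites were named by score, width or joint rank. Of the ESC sites without MEF overlap, the highest score was 39.02 at chromosome 15, 31348872 to 31349102, a site of 231 bp that was also open in EpiSC and NSC. It was followed by chromosome 13, 66781861 to 66781939 (34.6) and chromosome 13, 65516061 to 65516201 (32.8), which overlapped no further list. Of the MEF sites without ESC overlap the highest were chromosome 4, 149131438 to 149131499 (35.0), chromosome 7, 66931918 to 66931974 (34.8) and chromosome 7, 54861673 to 54861883 (30.7). Only the second of them overlapped a further list, EpiSC. Of these 6 sites 3 were under 100 bp wide.

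The widest ESC site without MEF overlap spanned 8111 bp on chromosome 4 from 137320915 to 137329025 and was open in EpiSC and NSC. Those that followed lay close together on chromosome 11, from 97388932 to 97396922 and from 97529225 to 97536782, and were open in EpiSC alone. The widest MEF site without ESC overlap spanned 5082 bp on chromosome 7 from 149655517 to 149660598, open also in EpiSC and NSC. Next were 4403 bp on chromosome 7 from 101244568 to 101248970, open in no further list, and 3625 bp on chromosome 15 from 38780297 to 38783921, open in both.

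The best shared site by its rank in both lists was on chromosome 5, where an ESC site from 122794373 to 122794694 scored 23.8 (rank 64 of its list) and a MEF site from 122794253 to 122794592 scored 20.4 (rank 69). On chromosome 17 an ESC site from 63233622 to 63233920 (23.9, rank 58) met a MEF site from 63233593 to 63233943 (18.5, rank 145). On chromosome 14 an ESC site from 9188458 to 9189076 (21.0, rank 181) met a MEF site from 9188504 to 9188779 (18.2, rank 177). The EpiSC and NSC lists had a site at each of these 3 places. Over all shared ESC sites, those open in EpiSC and NSC as well had a median score of 7.26, and those open in ESC and MEF alone had 3.22.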

How the data were processed

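FAIRE-seq libraries were amplified by PCR (15 cycles), gel fragments of about 150 to 400 bp were taken and sequencing used the Illumina Genome Analyzer, per the labels' protocols. The submitters' processing notes name CASAVA 1.8 and build mm9. Each deposited list gives chromosome, start, end and a score per site computed by the authors, plus another display value for the browser that follows the score. Not given in the sources used here are the caller's settings, the aligner, the use of the control and any pooling of replicates.

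Starts were taken as 0-based and are printed 1-based. Shared means an overlap of 1 bp or more. Windows are fixed, of 100 kb, and sites were counted by midpoint. Intervals are exact (Clopper-Pearson, 95%). Named sites, windows and stretches are the first 3 by score, width, count or length in each class, and named domains and the tilt were added after the values were seen. Members, lists and rules were chosen with earlier results of these data known. The planned gene lists and motifs were left out, as no genome or gene annotation of mm9 was used here. Alternatives varied the overlap, list length, score, width, merging, windows and chromosomes. Read depth is unknown. The tools were Python 3.11.15 with pandas 2.3.3, numpy 2.4.6, matplotlib 3.10.9 and scipy 1.17.1. Overlap was tested on simulated data and gave the counts of bedtools 2.31.1.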

Additional observations from a re-analysis of the deposited data

How the results depend on the processing

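Alternatives gave 64 values. A share was taken to move when it left its interval, and a count when it changed by over 1.5 times: 50 moved and 14 did not. No paired analysis was possible because ESC and MEF had 1 list each, which also left no replicate to leave out. The planned motif and gene results were not run. The tilt and the shares by score were added after the data were seen. Fewer sites, narrower sites and other windows change values by construction; for the rest the cause was not tested.

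Shares of ESC sites in MEF and of MEF sites in ESC were 20.6% and 21.6% with an overlap of 50% of the shorter site, 16.7% and 16.9% with the 50% of sites that score highest, and 25.01% and 25.1% with lists of equal length (424647 sites). With sites under 200 bp apart merged they were 25.6% and 25.5%, without chromosome 8 24.7% and 24.9%, and for sites of 200 to 500 bp 21.46% and 21.48%. With all chromosomes the MEF share was 25.02%.

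Windows with 5 or more ESC sites and no MEF site, and the reverse, numbered 195 and 4142 at 50 kb, 20 and 248 at 200 kb, and 178 and 2696 with the 50% of sites that score highest. ESC-tilted windows numbered 3287 at 50 kb, and at 200 kb 449 against 3065 MEF-tilted. With the 50% of sites that score highest, 2587 were ESC-tilted. MEF outnumbered ESC in each of these settings.

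Shares in EpiSC and NSC are given in the order ESC without MEF, ESC with MEF, MEF without ESC. With an overlap of 50% of the shorter site they were 31.3%, 59.2% and 13.4% in EpiSC and 22.5%, 55.9% and 29.2% in NSC. With lists of equal length (387312 sites) they were 37.2% and 62.3% in EpiSC for the first 2 and 17.2%, 48.1% and 28.0% in NSC. For sites of 200 to 500 bp they were 30.7%, 50.6% and 15.2%, and 24.8%, 52.8% and 33.4%; here, unlike in the full lists, shared ESC sites overlapped NSC more often than EpiSC. Without chromosome 8 and chromosome 14 from 86 Mb on they were 34.2%, 60.3% and 16.04% in EpiSC, and 25.1% and 34.3% in NSC for the first and last.

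The 10% of MEF sites with the lowest scores overlapped ESC in 37.8% with an overlap of 50% of the shorter site, 38.5% at 200 to 500 bp and 42.5% without chromosome 8. The 10% with the highest did so in 25.1% and 14.4% under the first 2.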

Other observations

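The X chromosome, left out above, held 2992 ESC and 7244 MEF sites. Of the ESC sites there, 587 (19.6%, interval 18.2 to 21.1) overlapped MEF, and 598 of the MEF sites (8.26%, 7.63 to 8.91) overlapped ESC, both below the autosomal shares of 24.5% and 25.3%. Both X shares count nearly the same overlaps, so the gap between them largely restates the smaller number of ESC sites there. MEF sites on the X had a median score of 2.63, against 3.32 on the autosomes, and ESC sites 3.85 against 3.45. The EpiSC list has no X site, and 18.5% of ESC and 11.9% of MEF sites on the X overlapped NSC.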
